A study of Mus musculus with 12 samples.

Results

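Tnnt1, Tnnt3 and Pdlim3 are 3 genes of striated muscle, taken from a table of read counts for 46517 mouse genes. They were selected on the counts in these libraries, because they are tied to the sarcomere, had 0 counts in every library of normal astrocytes, and had counts in every library made from tumor. That choice used the comparison of tumor with normal libraries, so those differences are given below as a description with no test. The comparison between the tumor groups was not used to choose them and is tested. The study concerned medulloblastoma in mice, a tumor of the cerebellum that grows from granule neuron progenitors (GNPs). It compared 3 groups of 4 libraries, with normal astrocytes as the reference. The groups are labelled normal astrocyte, tumor-derived astrocyte and tumor GNP cell, the first 2 from strain C57BL/6. The tumor GNP libraries are labelled C57BL/7, C57BL/8, C57BL/9 and C57BL/10, a different label for each. No tumor genotype, transgene, treatment or age is given in the labels. All 12 labels give laser capture microdissection, in which a laser lifts chosen cells off a frozen section. The sample sheet deposited with the counts calls the normal libraries adult cerebellar astrocytes and has the words "cultured tumor GNPs" at the first GNP entry and "tumor GNPs" at the third, while the titles of all 4 GNP libraries end in "cul". Age, culture and strain, where they differ, cannot be told apart from cell type. No label ties a library to an animal, and captures may share one, in which case the p-values over libraries are too small. Those p-values measure the spread between libraries, which may be technical.

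Muscle contracts when calcium binds the troponin complex on the thin filament of the sarcomere. Troponin C takes up the calcium, troponin I holds the filament inactive, and troponin T ties both to tropomyosin. Each part is encoded by separate genes for slow skeletal, fast skeletal or heart muscle: Tnnt1 encodes slow skeletal troponin T and Tnnt3 the fast skeletal form. In the mammalian genome the troponin T and troponin I genes lie next to each other in pairs. Pdlim3 encodes an adaptor with a PDZ and a LIM domain that binds alpha-actinin at the Z disc, the plate to which thin filaments are anchored. The human gene PDLIM3 is better known in this tumor as a member of the expression signature of the Sonic hedgehog (SHH) subgroup of medulloblastoma, together with EYA1, HHIP, ATOH1 and SFRP1. Medulloblastoma with myogenic differentiation, in which muscle cells lie among the tumor cells, is a known rare form of the human tumor.

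On mouse build mm10 the counted interval of Tnnt1 (ENSMUSG00000064179) is chr7:4504570-4516382 on the minus strand. That of Tnnt3 (ENSMUSG00000061723) is chr7:142498836-142516009 on the plus strand, on the same chromosome but far from Tnnt1. Pdlim3 (ENSMUSG00000031636) lies at chr8:45885485-45919546 on the plus strand. The promoters below, from RefSeq on GRCm38.p6, the same build, are printed because the genes share a pattern of 0 counts in normal astrocytes and counts in tumor. They run from 250 bases before to 50 bases after the annotated start, at chr7:4515926-4516225 (minus strand) for Tnnt1 and chr8:45885237-45885536 (plus strand) for Pdlim3. The RefSeq start of Tnnt1 lies inside its counted interval, whose own start is upstream of it. Of the 3 genes, 2 were matched in the promoter table. Capitals mark a GC box (GGGCGG) and the TATA box (TATAAA) in Tnnt1, and M-CAT elements (CATTCC, or GGAATG where it lies on the other strand) and GC boxes in Pdlim3.
Tnnt1: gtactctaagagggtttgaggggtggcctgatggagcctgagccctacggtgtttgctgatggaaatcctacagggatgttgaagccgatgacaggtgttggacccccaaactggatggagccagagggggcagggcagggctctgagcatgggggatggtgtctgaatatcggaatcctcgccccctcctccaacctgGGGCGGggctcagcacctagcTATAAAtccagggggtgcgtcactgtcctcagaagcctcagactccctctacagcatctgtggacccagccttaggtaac
Pdlim3: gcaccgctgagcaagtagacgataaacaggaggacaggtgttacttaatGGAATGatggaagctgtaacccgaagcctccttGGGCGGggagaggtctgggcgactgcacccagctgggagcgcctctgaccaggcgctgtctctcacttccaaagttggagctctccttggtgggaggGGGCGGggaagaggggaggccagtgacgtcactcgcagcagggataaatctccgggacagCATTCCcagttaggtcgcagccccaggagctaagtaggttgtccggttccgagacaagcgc
The Tnnt1 promoter held a TATA box at position -30 and a GC box at -51 from the start, where the Pdlim3 promoter held GC boxes at -168 and -71 and no TATAAA. M-CAT elements, the sites of TEAD factors in many muscle genes, occurred at -201 (minus strand) and -11 in Pdlim3 and were not found in the Tnnt1 window. Each promoter held 2 E-boxes (CANNTG, left in lower case), the sites of MyoD and other helix-loop-helix factors, at -158 and 24 in Tnnt1 and at -216 and -139 in Pdlim3. None of these matches overlapped another. Neither window held the GLI site TGGGTGGTC, a CArG box or a MEF2 site, searched on both strands. Of 27025 mouse promoters of this length, 72.1% held an E-box, 35.9% a GC box, 14.6% an M-CAT element, 14.2% TATAAA, 3.26% a MEF2 site, 1.57% a CArG box and 0.244% the GLI site. A match describes the letters and is not evidence of binding.

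The libraries held 8154401 to 12626596 counts each. Levels are counts scaled to a common library total (CPM), with a correction for composition. Reads came from the 3′ ends of transcripts, so counts do not scale with gene length. Counts of GNP replicates 1, 2 and 4 were much closer to each other than those of other libraries of the same group: their chi-square per degree of freedom was 1.43 to 7.52, where the remaining 15 pairs gave 24.03 to 184.33. They were therefore counted as 1 sample, and a GNP mean ± SD has n = 2. The titles of these libraries carry different numbers, and whether the numbers mark separate animals is not given in the labels. Among the astrocyte libraries, tumor-derived replicate 1 stood apart from replicates 2 to 4 in the genes described here, and each result that rests on it is also given without it. It stood apart over all genes as well. Its pairs with replicates 2 to 4 gave 65.23 to 78.34 per degree of freedom, against 24.03 to 33.11 among replicates 2 to 4.

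All 3 genes had 0 counts in each of the 4 normal astrocyte libraries. A count of 0 allows up to 3 counts, which corresponds to 0.294 CPM at this depth (counting error only, as the reads carry no molecular identifiers). Tnnt1 was at 236 CPM in tumor-derived replicate 1 but only at 12.2, 10.7 and 16.8 CPM in replicates 2, 3 and 4. In GNP replicates 1 to 4 it was at 91.4, 69.3, 17.9 and 65.3 CPM. Tumor-derived replicate 1 was thus above every GNP library, while replicates 2 to 4 were below all of them, and GNP replicate 3 was the lowest of its group. The Tnnt1 means were 69.0 ± 112 CPM (SD, n = 4) in tumor-derived astrocytes and 46.6 ± 40.6 CPM (n = 2) in GNPs, at least 235-fold and at least 159-fold above normal astrocytes. Without tumor-derived replicate 1 the Tnnt1 mean was 13.2 ± 3.17 CPM (n = 3), at least 45.0-fold above.

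Tnnt3 was at 60.5 CPM in tumor-derived replicate 1 but only at 1.84, 3.80 and 5.28 CPM in replicates 2, 3 and 4. In GNP replicates 1 to 4 it was at 125, 130, 94.9 and 131 CPM. The GNP libraries were close to each other and all above every tumor-derived library. The Tnnt3 means were 17.8 ± 28.5 CPM (n = 4) in tumor-derived astrocytes and 112 ± 24 CPM (n = 2) in GNPs, at least 60.8-fold and at least 381-fold above normal astrocytes. Without tumor-derived replicate 1 the Tnnt3 mean was 3.64 ± 1.72 CPM (n = 3), at least 12.4-fold above; replicate 2 had 15 counts. The gene Prr33 lies across 7936 bases of Tnnt3 on the opposite strand and had 0 counts in all 12 libraries. Whether the counting used strand is not given in the sources used here.

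Pdlim3 was at 121 CPM in tumor-derived replicate 1 but only at 50.6, 66.1 and 62.5 CPM in replicates 2, 3 and 4. In GNP replicates 1 to 4 it was at 29.7, 24.6, 6.54 and 27.2 CPM. Every tumor-derived library was above every GNP library, and GNP replicate 3 was again low within its group. The Pdlim3 means were 75.1 ± 31.4 CPM (n = 4) and 16.9 ± 14.6 CPM (n = 2), at least 256-fold and at least 57.4-fold above normal astrocytes. Without tumor-derived replicate 1 the Pdlim3 mean was 59.7 ± 8.11 CPM (n = 3), at least 203-fold above. The order of the groups therefore differed between the genes: Tnnt3 was highest in GNPs, Pdlim3 highest in tumor-derived astrocytes, and the ranges of Tnnt1 in both tumor groups overlapped. In captured samples, fewer cells of a type and less RNA per cell cannot be told apart.

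**Figure D1:**
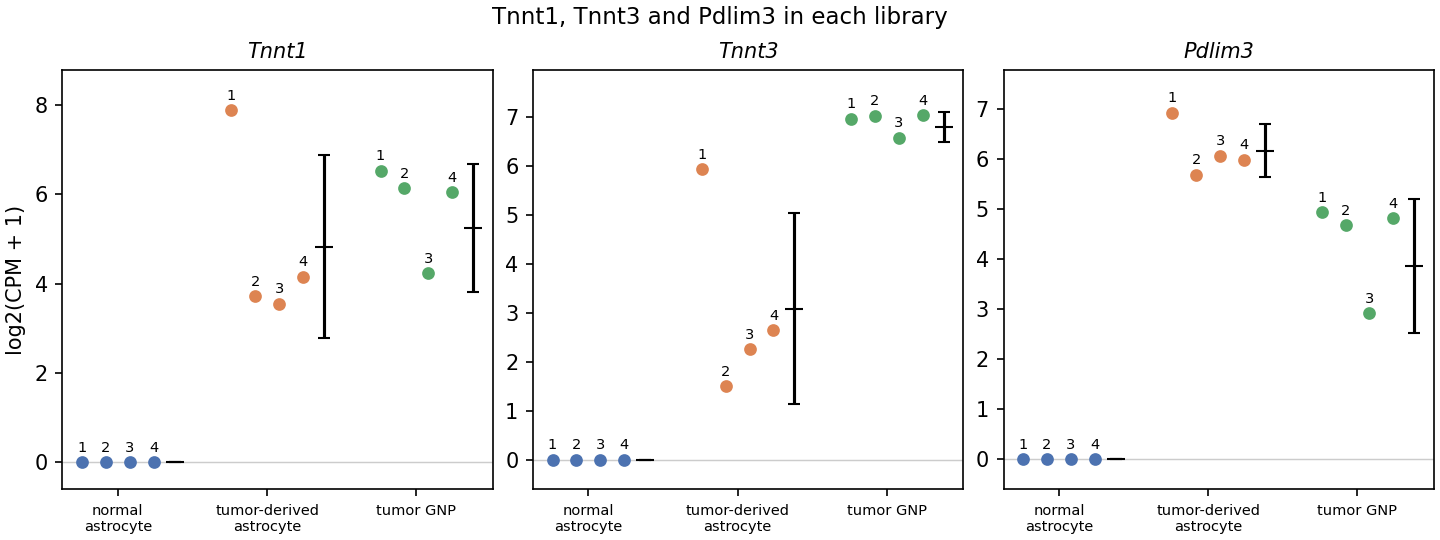
Level of each gene, as log2(CPM + 1), in the 12 libraries, with the replicate number above each point and, beside each group, the mean and SD of the log2 values (GNP replicates 1, 2 and 4 as 1 sample). All normal astrocyte libraries sit at 0, and tumor-derived replicate 1 is the highest of its group for all 3 genes.

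The levels in the tumor groups were compared by edgeR's quasi-likelihood test over 16374 genes, with Benjamini-Hochberg adjustment and a threshold of 0.05. In this comparison 6.62% of all genes tested were called with the tumor-derived level above that of GNPs and 3.26% below it (9.88% either way). None of the 3 genes was called, while 2 of the 3 had an unadjusted p under 0.05, as did 27.7% of all genes tested. DESeq2 called 1, Pdlim3, and gave the other 2 no adjusted p. It called 21.7% of the 15802 genes to which it gave one. For Tnnt3 the log2 fold change of tumor-derived astrocytes over GNPs was -2.72 ± 1.18 (SE), with an unadjusted p of 0.0464 and an adjusted p of 0.173. For Pdlim3 it was 2.03 ± 0.74, with an unadjusted p of 0.0229 and an adjusted p of 0.116. The groups did not overlap in either gene, a pattern that 26% of all genes tested showed with tumor-derived libraries higher and 19.7% with GNP libraries higher. For Tnnt1 the log2 fold change was 0.46 ± 1.31 (unadjusted p = 0.736, adjusted p = 0.86).

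The values of Tnnt1 and Tnnt3 moved with single libraries. Without tumor-derived replicate 1 the difference of Tnnt3 between the tumor groups was -5.0 on the log2 scale and passed the test (edgeR adjusted p = 0.00589). Without the same library the Tnnt1 difference turned to -1.92 (edgeR adjusted p = 0.174), and without GNP replicate 3 it was -0.28 (adjusted p = 0.944). The Pdlim3 difference stayed positive in all 20 alternatives, between 1.3 without GNP replicate 3 and 3.53 without GNP replicates 1, 2 and 4, with an adjusted p of 0.0146 to 0.353. With all 12 libraries as separate samples, Tnnt3 (-2.76, adjusted p = 0.0485) and Pdlim3 (1.77, adjusted p = 0.0216) passed the threshold. Those values count the 3 near-identical GNP libraries separately.

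**Figure D2:**
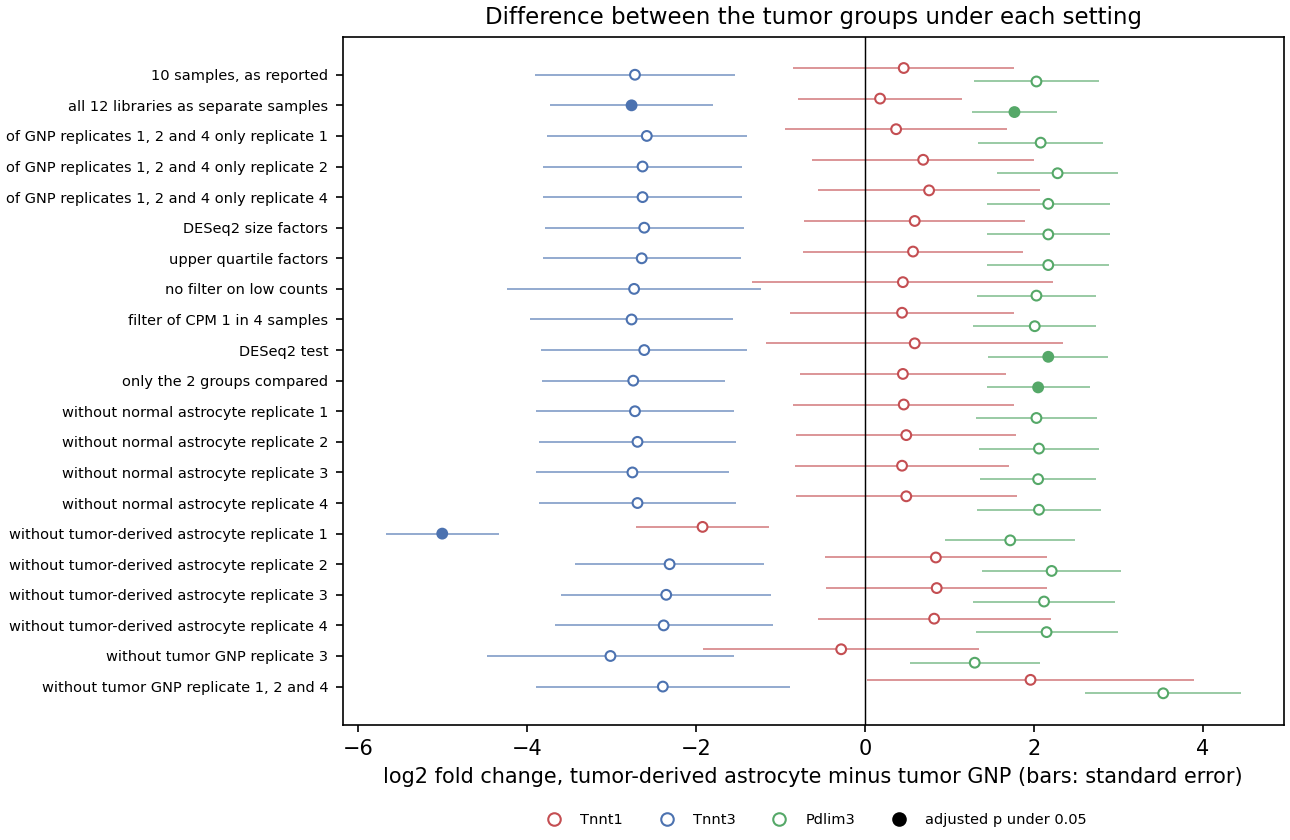
Log2 fold change of tumor-derived astrocytes over tumor GNPs for the 3 genes, with its standard error, as reported and under each of 20 alternative settings; filled points have an adjusted p under 0.05. Tnnt3 lies below 0 and Pdlim3 above 0 in every row, and Tnnt1 changes sign without tumor-derived replicate 1 or GNP replicate 3.

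The ratios of the 3 transcripts to each other are given by library, where the tumor groups did not overlap. How many other pairs of genes show this was not examined. These ratios of counts are compared between libraries only, since 3′ end counts of different genes are not on a common scale. There were 3.91, 6.6, 2.83 and 3.18 Tnnt1 counts per Tnnt3 count in tumor-derived replicates 1 to 4 and 0.731, 0.531, 0.189 and 0.498 in GNP replicates 1 to 4. Tumor-derived replicate 1, which stood far above its group in the level of both genes, lay within its group in their ratio. On the log2 scale the mean ratio was 1.96 ± 0.54 (SD, n = 4) in tumor-derived astrocytes and -1.59 ± 1.15 (n = 2) in GNPs, a difference of 3.56. Its two-sided exact permutation p was 0.133, the smallest that 15 assignments allow, so this design could not reach 0.05. Pdlim3 counts per Tnnt3 count were 2.0, 27.5, 17.4 and 11.8 in tumor-derived astrocytes and 0.238, 0.189, 0.0689 and 0.207 in GNPs. Pdlim3 counts per Tnnt1 count were 0.512, 4.16, 6.16 and 3.72 in tumor-derived astrocytes and 0.325, 0.356, 0.364 and 0.417 in GNPs, where all 4 libraries were close. For the latter ratio the lone tumor-derived replicate 1 was near the GNP values. Both had the same exact permutation p of 0.133 and the same value adjusted over the 3 ratios.

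Of the 6 other troponin genes, 5 had enough counts to be tested, and 3 rose in each tumor group against normal astrocytes. Of all genes tested, 17.9% rose in tumor-derived astrocytes and 12.5% in GNPs. Tnnt2, the heart form of troponin T that embryonic skeletal muscle also makes, had 0 counts in normal astrocytes. It was at 15.8, 7.25, 9.54 and 3.26 CPM in tumor-derived replicates 1 to 4 and at 25.6, 27.0, 86.4 and 24.1 CPM in GNP replicates 1 to 4. All tumor-derived libraries were below all GNP libraries, and GNP replicate 3 was the highest. Against normal astrocytes Tnnt2 rose at least 30.6-fold in tumor-derived astrocytes (edgeR adjusted p = 0.00043) and at least 191-fold in GNPs (adjusted p = 0.000166). In this paragraph and below, a gene with 0 counts in every normal library passed the filter on low counts only through tumor libraries. Such a gene could not fall, and its p-values against normal astrocytes are given as a description. In GNPs the fitted log2 rise of Tnnt2, which depends on the prior count, was 12.34, and 11.37 without GNP replicate 3. Its log2 difference between the tumor groups was -2.67 ± 0.76 (adjusted p = 0.0574).

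Tnni1, slow skeletal troponin I and the usual partner of Tnnt1 in slow fibres, also had 0 counts in normal astrocytes. It was at 150, 0.369, 0.542 and 0 CPM in tumor-derived replicates 1 to 4, so that only replicate 1 was clearly above the 0.339 CPM that 3 counts represent there. In GNP replicates 1 to 4 Tnni1 was at 26.6, 22.8, 72.5 and 21.4 CPM. The Tnni1 rise in tumor-derived astrocytes (edgeR adjusted p = 0.0263) was lost without replicate 1 (adjusted p = 0.0579, mean 0.304 CPM). Its rise in GNPs (adjusted p = 0.033) was at least 164-fold and was lost without any 1 normal library or either GNP sample, with adjusted p between 0.0502 and 0.0896. Tnnt1 thus held 99 to 175 counts in tumor-derived replicates 2 to 4, libraries in which Tnni1 was near 0.

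Tnni2, fast skeletal troponin I and the usual partner of Tnnt3, was at 0.567 CPM in normal replicate 1 and at 0 in the other normal libraries. It was at 65.0, 2.33, 4.99 and 6.43 CPM in tumor-derived replicates 1 to 4 and at 47.7, 46.5, 41.0 and 49.7 CPM in GNPs. Tnni2 and Tnnt3 therefore ranked the tumor-derived libraries in the same order, and both were lowest of the GNPs in replicate 3. In tumor-derived replicate 1, however, Tnni2 was above every GNP library, where Tnnt3 was below all of them. It rose in tumor-derived astrocytes, with a log2 fold change of 7.05 ± 1.47 (edgeR adjusted p = 0.00424), and 4.92 without tumor-derived replicate 1 (adjusted p = 0.0113). In GNPs it rose by 8.29 ± 1.58 (adjusted p = 0.00302). Without normal replicate 1, which held its only normal counts, the fitted changes of Tnni2 were 10.82 and 12.06.

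The remaining troponin genes were called in none of the 3 comparisons as reported. Tnni3, heart troponin I, was at 0 to 8.0 CPM in normal astrocytes, at 11.6, 2.46, 1.63 and 2.88 CPM in tumor-derived replicates 1 to 4 and at 0 in all GNP libraries. Its log2 difference between the tumor groups was 8.73 ± 2.83 as fitted (edgeR adjusted p = 0.0747), and the mean was at least 14.7-fold higher in tumor-derived astrocytes. Tnnc1, the troponin C of slow and heart muscle, was present in normal astrocytes, at 10.2, 8.51, 53.1 and 26.4 CPM. It was at 104 CPM in tumor-derived replicate 1, at 5.65 to 11.8 CPM in replicates 2 to 4, at 9.23 CPM in GNP replicate 3 and at 82.0 to 85.9 CPM in the other GNP libraries. Tnnc2, the fast form that Tnnt3 works with in fast fibres, was nearly absent, at 0.249 CPM in tumor-derived replicate 1, 0.213 CPM in GNP replicate 4 and 0 elsewhere, and had too few counts to be tested.

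Of the 6 other genes of the PDZ-LIM family, 2 rose in tumor-derived astrocytes, and 1 rose and 1 fell in GNPs, against normal astrocytes. Among all genes tested, 17.9% rose in tumor-derived astrocytes, and 12.5% rose and 11.6% fell in GNPs. Pdlim1, an alpha-actinin partner of many cell types, was at 0 to 0.681 CPM in normal astrocytes, at 13.8, 4.05, 9.65 and 3.65 CPM in tumor-derived replicates 1 to 4 and at 22.6, 21.8, 51.7 and 20.0 CPM in GNPs. It rose in both, by 5.37 ± 1.12 (edgeR adjusted p = 0.00422) and 7.63 ± 1.26 (adjusted p = 0.00119) on the log2 scale. Without normal replicate 2 these were 7.58 and 9.82, and without GNP replicate 3 the latter was 6.97. Pdlim4 was at 41.2 to 74.9 CPM in tumor-derived and 6.90 to 35.4 CPM in normal astrocytes, a change of 1.97 ± 0.70 (adjusted p = 0.048). The Pdlim4 call was lost without any 1 tumor-derived library (adjusted p of 0.0687 to 0.106) and without normal replicate 1, 2 or 3 (0.0898 to 0.0975), and its log2 fold change was 2.82 without normal replicate 4. Pdlim2 was lower in GNPs than in both other groups, at 0 to 0.427 CPM against 1.25 to 10.7 CPM in tumor-derived (4.35 ± 1.27, adjusted p = 0.0497) and 3.44 to 26.4 CPM in normal astrocytes (-5.33 ± 1.33, adjusted p = 0.0131). Both Pdlim2 calls were lost without GNP replicate 3 (adjusted p = 0.173 and 0.072) and without the other GNP sample (0.299 and 0.112), and that between the tumor groups also without tumor-derived replicate 2, 3 or 4 (0.09 to 0.111).

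Pdlim5, Pdlim7 and Ldb3 were not called in any comparison, with edgeR adjusted p of 0.114 or more. Ldb3, the Z disc protein also known as Cypher or ZASP, was at 16.5, 14.3, 0.623 and 13.9 CPM in GNP replicates 1 to 4 and at 1.5 CPM or less in tumor-derived astrocytes, while normal replicate 4 was at 6.05 CPM. Pdlim7 was present throughout, at 24.3 to 246 CPM in normal and 61.2 to 172 CPM in tumor-derived astrocytes and 12.6 to 31.8 CPM in GNPs.

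**Figure D3:**
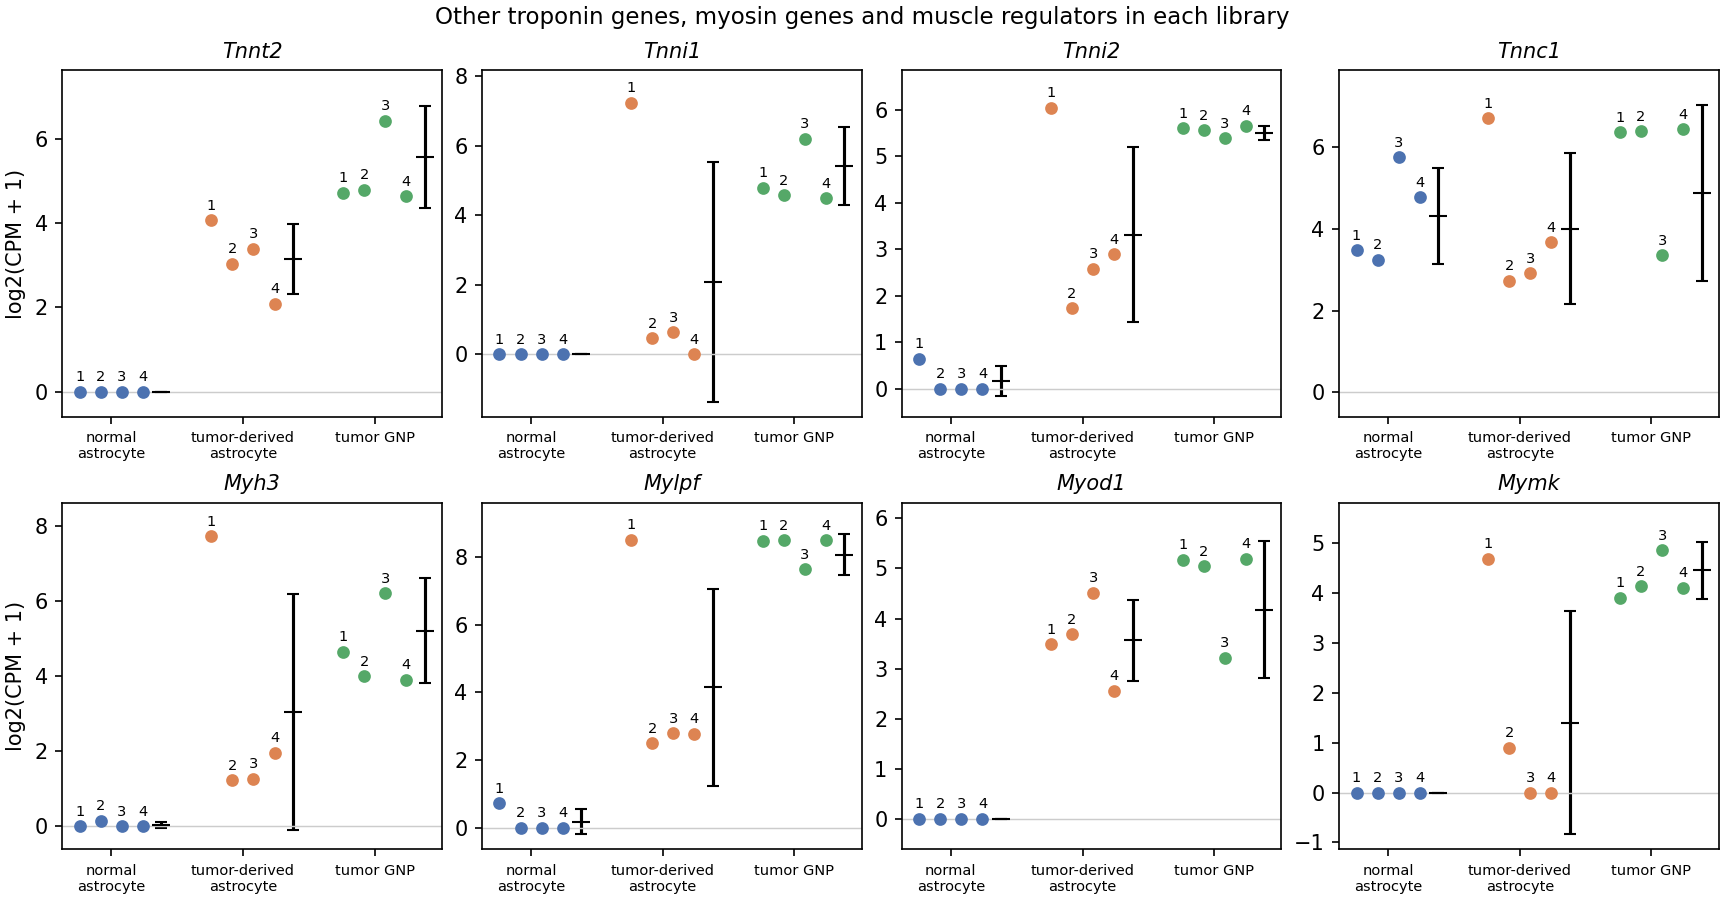
Levels of 4 other troponin genes, 2 myosin genes and the muscle regulators Myod1 and Mymk, as log2(CPM + 1), in the 12 libraries, with replicate numbers and the mean and SD of the log2 values beside each group. Tumor-derived replicate 1 stands far above replicates 2 to 4 for Tnni1, Tnni2, Tnnc1, Myh3, Mylpf and Mymk, and lies within its group for Myod1.

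A wider set of 89 other striated muscle genes in 4 lists (thin filament, thick filament, Z disc, and muscle calcium and energy genes) was examined in the same fit, and 73 had enough counts to be tested. Against normal astrocytes, 19 rose and 7 fell in tumor-derived astrocytes, where 17.9% of all genes tested rose and 14.4% fell (32.3% either way). In GNPs 20 rose and 6 fell, against 12.5% and 11.6% of all genes (24.1% either way). The median log2 fold changes of the list were 1.41 and 2.24, and 0.11 and 0.05 over all genes. Both comparisons share the normal libraries. The lists were chosen with results known, so these counts and medians are a description. Of the 73 genes, 15 (20.5%) had 0 counts in every normal library, against 4.98% of all genes tested. Those 15 passed the filter on low counts only through the tumor libraries and could not fall. Between the tumor groups 4 were called with the tumor-derived level above that of GNPs and 2 below it (median -0.36, and 0.06 over all genes), or 4 and 1 under either other scaling. Which direction had more calls depended on tumor-derived replicate 1, without which 3 were above and 7 below. Without normal replicate 2 there were 7 above and 3 below, without GNP replicate 3 there were 2 and 1, and without GNP replicates 1, 2 and 4 there were 1 and 0. DESeq2 called 11 above and 4 below. Against normal astrocytes DESeq2 called 10 higher and 7 lower in tumor-derived astrocytes and 12 higher and 12 lower in GNPs. It gave no adjusted p to 20 of the 73 genes, among them 10 of the 19 and 9 of the 20 that rose. With only the compared groups fitted, 10 rose and 7 fell in tumor-derived astrocytes, and with all 12 libraries as separate samples 26 rose and 12 fell in GNPs. Of the 19 genes higher in tumor-derived astrocytes, 13 kept the call when each sample was left out in turn, and the other 6, Ankrd1, Jph2, Mb, Mybpc2, Myl1 and Tnni1, were no longer called without tumor-derived replicate 1, Mybpc2 because it was then too low to be tested. Of the 20 higher in GNPs, 13 kept the call in all of those fits.

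Among 16 thin filament genes tested, 4 rose in tumor-derived astrocytes and 5 in GNPs, against 17.9% and 12.5% of all genes tested. Actc1, the alpha actin of heart and of embryonic skeletal muscle, was at 0.195 CPM in normal replicate 4 and at 0 in the other normal libraries. It was at 134, 6.02, 6.72 and 4.41 CPM in tumor-derived replicates 1 to 4 and at 40.9, 40.4, 244 and 36.1 CPM in GNP replicates 1 to 4. Actc1 rose by 9.36 ± 1.69 on the log2 scale in tumor-derived astrocytes (edgeR adjusted p = 0.00193; 6.61 without replicate 1) and by 11.26 ± 1.81 in GNPs (adjusted p = 0.00101; 9.56 without GNP replicate 3, 11.98 without the other GNP sample), and without normal replicate 4 the values were 11.78 and 13.65. Acta1, skeletal alpha actin, was at 189 CPM in tumor-derived replicate 1 but only at 2.06 to 4.30 CPM in replicates 2 to 4, against 2.41 to 11.8 CPM in normal astrocytes (3.26 ± 1.35, adjusted p = 0.0825). Tpm4, a tropomyosin that non-muscle cells also make, rose in GNPs, at 137 to 154 CPM against 6.81 to 53.2 CPM in normal astrocytes (2.66 ± 0.59, adjusted p = 0.0072; 3.30 without normal replicate 2). Tpm4 was also lower in tumor-derived astrocytes than in GNPs (-2.09 ± 0.59, adjusted p = 0.0445), a call lost without any 1 tumor-derived library, either GNP sample or normal replicate 4 (adjusted p of 0.0502 to 0.223) and under both other scalings (0.0538 and 0.0559). Nebl, the nebulin relative of heart muscle, fell by 2.87 ± 0.95 on the log2 scale in GNPs against normal astrocytes (adjusted p = 0.0446) and lost the call without normal replicate 2 or 4 or tumor-derived replicate 2, 3 or 4 (0.0507 to 0.0644) and without GNP replicate 3 (fell by 2.07, adjusted p = 0.221), while without GNP replicates 1, 2 and 4 it fell by 4.92.

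Of 19 thick filament genes tested, 8 rose and 2 fell in tumor-derived against normal astrocytes, and 6 rose and 3 fell in GNPs. The shares of all genes were 17.9% and 14.4% in tumor-derived astrocytes and 12.5% and 11.6% in GNPs. Myh3, the embryonic myosin heavy chain, was at 0.113 CPM in normal replicate 2 and 0 in the other normal libraries. It was at 211, 1.35, 1.41 and 2.88 CPM in tumor-derived replicates 1 to 4 and at 24.1, 15.0, 72.4 and 14.0 CPM in GNPs. Myh3 rose by 10.61 ± 2.27 on the log2 scale in tumor-derived astrocytes (edgeR adjusted p = 0.00485; 5.73 without replicate 1, adjusted p = 0.00371) and by 10.35 ± 2.33 in GNPs (adjusted p = 0.00766; 9.14 without GNP replicate 3), or by 12.33 and 12.04 without normal replicate 2. Myh8, the perinatal myosin heavy chain, had 0 counts in normal astrocytes and was at 24.9, 0.491, 1.08 and 1.44 CPM in tumor-derived replicates 1 to 4 and at 12.6 to 18.0 CPM in GNPs. The Myh8 rises were at least 23.8-fold (adjusted p = 0.00855; at least 3.42-fold without tumor-derived replicate 1) and at least 49.9-fold (adjusted p = 0.0078).

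The fast myosin light chains were present at 198 CPM or more in every GNP library. Mylpf, the fast regulatory light chain, was at 364, 4.67, 5.96 and 5.85 CPM in tumor-derived replicates 1 to 4 and at 356, 359, 198 and 360 CPM in GNPs, with 0.662 CPM in normal replicate 1 and 0 in the other normal libraries. Mylpf rose by 9.11 ± 1.92 (edgeR adjusted p = 0.00445; 4.96 without tumor-derived replicate 1) and by 10.74 ± 2.06 (adjusted p = 0.00307; 10.13 without GNP replicates 1, 2 and 4), or by 13.1 and 14.72 without normal replicate 1. Myl1, the fast essential light chain, was at 125, 0, 0.108 and 1.54 CPM in tumor-derived replicates 1 to 4 and at 360, 368, 224 and 352 CPM in GNPs, and at 0 to 0.688 CPM in normal astrocytes. Its rise in GNPs was 10.34 ± 2.39 (adjusted p = 0.00875; 12.01 without normal replicate 3). In tumor-derived astrocytes Myl1 had a change of 7.06 ± 2.11 (adjusted p = 0.0236), which was 1.26 (adjusted p = 0.468) without replicate 1, 8.69 without normal replicate 3, and not called without normal replicate 1 (0.0525) or 4 (0.0517).

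Other thick filament genes fell against normal astrocytes. Mybpc3, the heart form of myosin-binding protein C, was at 388, 470, 107 and 215 CPM in normal astrocytes, at 56.8 to 76.6 CPM in tumor-derived astrocytes and at 0 to 0.756 CPM in GNPs. Mybpc3 fell by 2.07 ± 0.52 on the log2 scale in tumor-derived astrocytes (adjusted p = 0.0109) and by 9.5 ± 1.03 in GNPs (adjusted p = 6.73e-05), while it fell by 14.46 without GNP replicates 1, 2 and 4 and fell by 8.81 without GNP replicate 3. Between the tumor groups the Mybpc3 difference was 7.44 ± 0.95 (adjusted p = 0.00124; 6.74 and 12.39 without each GNP sample). Mybpc2 and Myh7b were also higher in tumor-derived astrocytes than in GNPs (adjusted p = 0.0484 and 0.0122). The Myh7b call was lost without either GNP sample (0.0632 and 0.155). The Mybpc2 call was lost without normal replicate 1 (0.0607), without tumor-derived replicate 2 or 4 (0.0799 and 0.0732) and without either GNP sample (0.163 and 0.275), and the gene could not be tested without tumor-derived replicate 1 or 3. Mybpc2 had 9.0 CPM in tumor-derived replicate 3, 0.737 to 1.87 CPM in the other tumor-derived libraries and 0 in GNPs.

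Of 21 Z disc genes tested, 4 rose and 2 fell in tumor-derived astrocytes, and 5 rose in GNPs. Over all genes tested, 17.9% rose and 14.4% fell in tumor-derived astrocytes, and 12.5% rose in GNPs. Flnc, the muscle filamin that cross-links actin at the Z disc, had 0 counts in normal astrocytes and was at 14.7, 36.6, 51.3 and 27.9 CPM in tumor-derived replicates 1 to 4 and at 7.78, 6.21, 6.54 and 6.30 CPM in GNPs. As with Pdlim3, all tumor-derived libraries were above all GNP libraries, but here replicate 1 was the lowest of its group. Flnc rose at least 111-fold in tumor-derived astrocytes (edgeR adjusted p = 7.44e-05) and at least 22.6-fold in GNPs (adjusted p = 0.000273), and its difference between the tumor groups was 2.21 ± 0.75 (adjusted p = 0.095). Myoz1, the calsarcin of fast fibres, had 0 counts in normal astrocytes and rose at least 3.12-fold in tumor-derived astrocytes, to 0.48 to 1.25 CPM (adjusted p = 0.00793), and at least 13.5-fold in GNPs, to 3.01 to 5.02 CPM (adjusted p = 0.00354). Synpo2l, an actin-bundling Z disc protein, likewise rose from 0 counts, at least 7.45-fold (adjusted p = 0.0191; at least 1.16-fold without tumor-derived replicate 1) and at least 23.6-fold (adjusted p = 0.0139). Actn2, the alpha-actinin of striated muscle to which Pdlim3 binds, was at 41.9, 1.11, 3.36 and 3.74 CPM in tumor-derived replicates 1 to 4 and at 20.0, 20.0, 54.4 and 13.9 CPM in GNPs, with 4.29 CPM in normal replicate 4 and 0 in the other normal libraries. The changes of Actn2 were 3.58 ± 1.63 (adjusted p = 0.112) and 5.13 ± 1.85 (adjusted p = 0.0621). Fhl1, a LIM protein of muscle and other tissues, fell by 2.44 ± 0.34 on the log2 scale in tumor-derived astrocytes (adjusted p = 0.000351), to 15.4 to 24.9 CPM, and was also below GNPs (-1.92 ± 0.38, adjusted p = 0.0102; 0.155 without GNP replicates 1, 2 and 4).

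The list of muscle calcium and energy genes went both ways. Of 17 tested, 3 rose and 3 fell in tumor-derived astrocytes, and 4 rose and 2 fell in GNPs. For all genes tested the shares were 17.9% and 14.4% in tumor-derived astrocytes and 12.5% and 11.6% in GNPs. Casq1, the calsequestrin of fast fibres that stores calcium, had 0 counts in normal astrocytes and was at 8.85, 1.84, 3.58 and 4.13 CPM in tumor-derived replicates 1 to 4. It rose at least 15.7-fold (edgeR adjusted p = 0.0116), whereas in GNPs only replicate 3 had counts, at 1.76 CPM. Mb, myoglobin, was at 444 CPM in tumor-derived replicate 1, at 0.246, 0.651 and 2.21 CPM in replicates 2 to 4, and at 41.3, 34.0, 0 and 39.1 CPM in GNPs. The Mb change in tumor-derived astrocytes was 10.94 ± 3.01 (adjusted p = 0.0165), and 4.2 without replicate 1 (adjusted p = 0.121) or 13.28 without normal replicate 3 (0.0533). Ckm, muscle creatine kinase, stayed at 0.934 to 2.81 CPM in GNPs and at 0 to 0.623 CPM in all other libraries, and was not called. The genes that fell, Ryr1, Casq2 and Pygm, were present in every normal library. Casq2, the calsequestrin of heart and slow muscle, fell by 5.38 ± 1.11 on the log2 scale in tumor-derived astrocytes (adjusted p = 0.0041), from 9.65 to 174 CPM in the normal libraries to 0.325 to 5.24 CPM, while it fell by 6.47 without tumor-derived replicate 1 and fell by 4.76 without normal replicate 3. Ryr1, the calcium release channel of skeletal muscle, which Purkinje neurons also make, was at 27.1 to 394 CPM in normal astrocytes and at 17.3 to 29.9 CPM in tumor-derived ones (-3.31 ± 0.62, adjusted p = 0.00234). Ryr1 in GNPs was at 20.1 to 31.5 CPM (-3.02 ± 0.81, adjusted p = 0.0186; 0.119 and 0.11 without each GNP sample). Pygm, muscle glycogen phosphorylase, which astrocytes also make, fell by 4.12 ± 0.49 and 3.58 ± 0.64 on the log2 scale (adjusted p = 0.000136 and 0.00208).

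The calls of neuromuscular genes in GNPs each depended on 1 of the GNP samples. Chrnd, the delta subunit of the muscle acetylcholine receptor, was at 23.7 CPM in GNP replicate 3 and at 0.756 to 1.32 CPM in the other GNP libraries (edgeR adjusted p = 0.0108). Its fitted log2 change was 10.14, against 6.87 without replicate 3 (adjusted p = 0.0915) and 10.84 without GNP replicates 1, 2 and 4. Cacng1, a subunit of the muscle calcium channel, was at 9.34 CPM in GNP replicate 3 while the others were at 0 to 0.108 CPM (8.73 as fitted, adjusted p = 0.0285; 3.05 and 0.37 without replicate 3; 9.5 without GNP replicates 1, 2 and 4; not tested without tumor-derived replicate 1). Chrng, the receptor's fetal gamma subunit, was instead even across the group, at 3.67 to 4.98 CPM, against 0 counts in normal astrocytes (adjusted p = 0.0156; 0.0515 without GNP replicates 1, 2 and 4).

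Within the tumor-derived group, replicate 1 was the highest library for 57 of the 73 striated muscle genes tested, and across all 12 libraries it was the highest for 23. Of the 73, 45 (61.6%) were more than 2-fold higher in that library than in any other of its group, against 9.81% of all genes tested, and 1, Myl6b, named because it was the exception, was under 50% of the next lowest, against 12% of all genes. The summed level of the 89 genes was 4108 CPM in tumor-derived replicate 1, 1282 to 1349 CPM in replicates 2 to 4, 1539 to 1849 CPM in normal astrocytes and 2150 to 2225 CPM in GNPs. In GNP replicate 3, 21 of the 73 genes (28.8%) were more than 2-fold above the other GNP libraries and 18 (24.7%) under 50% of them, against 19.8% and 14% of all genes. Tnnt2, Tnni1, Actc1 and Myh3 were among the former, and Tnnc1, Mb and Ldb3 among the latter, with Tnnt1 and Pdlim3 low as well. Other genes of the lists, which were chosen with results known, have the pattern by which the 3 genes were chosen, given here as a description. Of the 73 genes, 15 (20.5%) had 0 counts in every normal library, against 4.98% of all genes, and so passed the filter on low counts only through the tumor libraries. Of these 15, 5, Flnc, Myh8, Myoz1, Synpo2l and Tnnt2 (6.85% of the 73, against 1.69% of all genes), also had counts in all 8 tumor libraries.

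**Figure D4:**
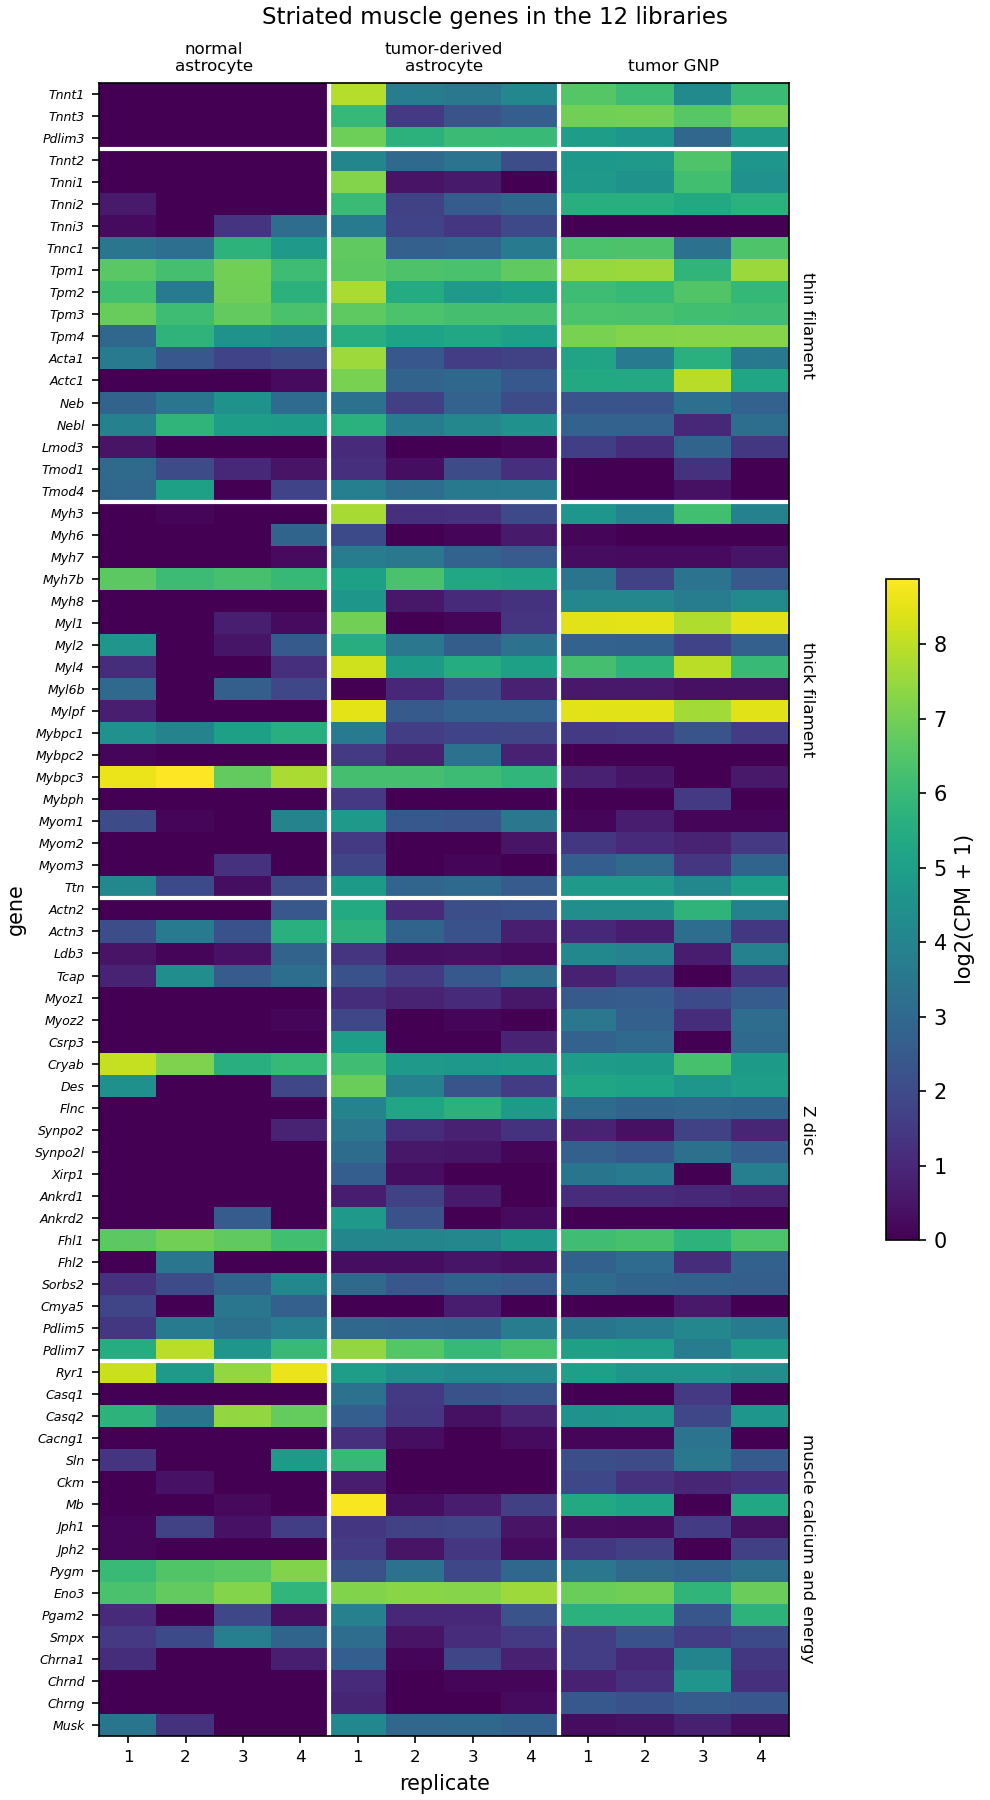
Levels, as log2(CPM + 1), of Tnnt1, Tnnt3 and Pdlim3 (top 3 lines) and of the tested genes of the 4 striated muscle lists, 1 of them not shown, in the 12 libraries. Tumor-derived replicate 1 is the brightest column of its group by more than 2-fold for 45 of the 73 genes tested. Pygm and Mybpc3 are brighter in every normal astrocyte library than in any tumor library. For Ryr1 and Casq2 this holds for normal replicates 1, 3 and 4 but not for replicate 2.

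The transcription factors that drive skeletal muscle formation were partly present. Myod1, which commits cells to the muscle lineage, had 0 counts in normal astrocytes and was at 10.2, 11.9, 21.9 and 4.89 CPM in tumor-derived replicates 1 to 4 and at 35.2, 32.1, 8.30 and 35.6 CPM in GNP replicates 1 to 4. Tumor-derived replicate 1 lay within its group here, and GNP replicate 3 was again low. Myod1 rose at least 41.7-fold in tumor-derived astrocytes (edgeR adjusted p = 0.000578) and at least 72.5-fold in GNPs (adjusted p = 0.000479). With 0 counts in every normal library, Myod1 could not fall. Its fitted log2 change in GNPs was 11.04, or 9.33 without GNP replicates 1, 2 and 4 and 11.79 without GNP replicate 3. Mymk (Tmem8c in the table), the myomaker that fuses myoblasts, had 0 counts in normal astrocytes and was at 24.7, 0.86, 0 and 0 CPM in tumor-derived replicates 1 to 4 and at 14.0 to 27.9 CPM in GNPs. The Mymk rise in tumor-derived astrocytes (adjusted p = 0.0326) was lost without replicate 1 (0.116) and without normal replicate 1, 3 or 4 (0.0526 to 0.0533), and that in GNPs (0.0258) without GNP replicate 3 (0.0694) or the other GNP sample (0.064).

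Myog, which starts terminal differentiation, had counts in tumor-derived replicate 1 (3.37 CPM) and in GNPs (0.104 to 0.972 CPM) and none elsewhere, too few to be tested. Myf5 had 0 counts in all 12 libraries, and Myf6 and Pax7, the latter a marker of muscle stem cells, did not exceed 0.611 CPM in any. Of the 9 muscle regulators tested, Myod1 and Mymk rose in both tumor groups. Of all genes tested, 17.9% rose in tumor-derived astrocytes and 12.5% in GNPs. Mef2a and Mef2c, factors that neurons also use, fell in tumor-derived astrocytes by 2.02 ± 0.47 and 2.88 ± 0.56 on the log2 scale (edgeR adjusted p = 0.00711 and 0.00298).

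The other genes of the SHH subgroup signature to which PDLIM3 belongs in human tumors did not share a common order of the groups. Atoh1, the factor that defines granule neuron progenitors, had 0 counts in normal astrocytes, was at 3.74, 3.93, 4.99 and 13.2 CPM in tumor-derived replicates 1 to 4 and at 56.6, 54.8, 24.7 and 59.4 CPM in GNPs. It rose at least 22-fold (edgeR adjusted p = 0.000562; fitted log2 change 9.2, or 8.61 without tumor-derived replicate 4) and at least 139-fold (adjusted p = 0.000198; fitted 11.96, or 10.91 without GNP replicates 1, 2 and 4). With 0 counts in every normal library, Atoh1 could not fall. Sfrp1, a secreted Wnt modulator, was at 566 to 716 CPM in tumor-derived astrocytes, at 1021 to 1145 CPM in GNPs and at 0 to 1.37 CPM in normal astrocytes, rising by 10.32 ± 0.81 (adjusted p = 1.04e-05) and 11.23 ± 0.85 (adjusted p = 6.91e-06), or by 11.59 and 12.47 without normal replicate 4.

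Hhip, the Hedgehog-binding protein that the pathway itself induces, was at 15.6, 13.5, 11.4 and 19.7 CPM in tumor-derived replicates 1 to 4 and at 0.311 to 1.39 CPM in GNPs. Like Pdlim3 it was higher in every tumor-derived library than in every GNP library. Hhip rose by 6.1 ± 1.14 against normal astrocytes (edgeR adjusted p = 0.00235; 6.82 without normal replicate 4), and its difference between the tumor groups was 4.14 ± 1.37 (adjusted p = 0.0761). Eya1, a phosphatase and transcription cofactor, was at 1.74 to 3.81 CPM in tumor-derived astrocytes and 0 to 0.216 CPM in GNPs and was not called (adjusted p = 0.0682 against normal astrocytes, 0.14 between the tumor groups). Of 10 Hedgehog target genes, 6 rose and 1 fell in tumor-derived astrocytes and 5 rose and 1 fell in GNPs. The shares of all genes were 17.9% and 14.4%, and 12.5% and 11.6%. Ptch1 fell in both, from 18.4 to 25.5 CPM in normal astrocytes. It was at 6.98 to 10.2 CPM in tumor-derived astrocytes and 1.87 to 4.58 CPM in GNPs. Its call in tumor-derived astrocytes was lost without any 1 tumor-derived library or normal replicate 2, 3 or 4. The summed level of the 10 genes was 1324 CPM in tumor-derived replicate 1 and 2160 to 2397 CPM in replicates 2 to 4. It was 2003 to 2256 CPM in GNPs and 60.9 to 107 CPM in normal astrocytes. Replicate 1, the highest of its group for all 3 muscle genes, was thus the lowest for these.

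Markers of other cell types moved with the groups, and their part in the results was not tested. The normal astrocyte libraries held abundant transcripts of Purkinje neurons, the 8 markers summing to 4882 to 18716 CPM, against 2297 CPM in tumor-derived replicate 1, 1154 to 1245 CPM in replicates 2 to 4 and 185 to 219 CPM in GNPs. Pcp2, a defining Purkinje marker, was at 0 in all GNP libraries. The 12 astrocyte markers summed to 5991 to 13106 CPM in normal astrocytes, 990 to 2092 CPM in tumor-derived astrocytes, with replicate 1 lowest, and 474 to 708 CPM in GNPs. Aldh1l1, an astrocyte enzyme, was at 138 to 465 CPM in normal and 221 to 340 CPM in tumor-derived astrocytes and at 0.306 to 1.62 CPM in GNPs. The 12 granule progenitor markers summed to 404 to 811 CPM in normal astrocytes and 1762 to 2237 CPM in tumor-derived astrocytes. In GNPs they summed to 1689 to 1838 CPM. Of these 12, 8 rose in tumor-derived against normal astrocytes, as did 17.9% of all genes tested. Of the 12 astrocyte markers 11 were tested. In tumor-derived against normal astrocytes 1 rose and 7 fell, and in GNPs 8 fell and none rose. Between the tumor groups, 5 were called with the tumor-derived level above that of GNPs and none below it. Of all genes tested, 17.9% rose and 14.4% fell in tumor-derived astrocytes, 11.6% fell in GNPs, and 6.62% were called above GNPs. Slc1a2, an astrocyte glutamate transporter, and Sox9, a glial transcription factor, were not called between the tumor groups, with log2 differences of -0.84 (edgeR adjusted p = 0.263) and -2.32 (adjusted p = 0.239).

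The 14 markers of smooth muscle and mural cells of vessels summed to 265 CPM in tumor-derived replicate 1. The sum was 68.8 to 106 CPM in replicates 2 to 4. It was 30.6 to 64.7 CPM in normal astrocytes and 47.9 to 60.8 CPM in GNPs. One of these markers, Des, is also counted in the striated muscle lists. Des contributed 116 CPM to the sum of tumor-derived replicate 1 and 1.92 to 13.8 CPM to those of replicates 2 to 4. Its share was 0 to 21.2 CPM in normal astrocytes and 24.3 to 36.1 CPM in GNPs. The high sum of replicate 1 is thus in part that of a striated muscle gene. Acta2, smooth muscle actin, was at 49.4 CPM in tumor-derived replicate 1 but only at 1.52 to 3.36 CPM in replicates 2 to 4, and Myh11, smooth muscle myosin, at 4.86 CPM and 0.325 to 1.72 CPM. Pdgfrb, Kcnj8, Abcc9, Des and Cspg4 were also highest of the group in replicate 1. By contrast Rgs5 (1.87 CPM), Actg2 (1.12 CPM) and Smtn (6.36 CPM) were lowest there. Their levels in replicates 2 to 4 were 5.09 to 8.85, 2.21 to 5.96 and 7.0 to 15.7 CPM. Tagln, Cnn1 and Notch3 were neither highest nor lowest in replicate 1, and Lmod1 was at 0 to 0.217 CPM. In GNPs Acta2 was at 0 except for 4.98 CPM in replicate 3. Of the 14, 2 were higher in tumor-derived than in normal astrocytes, 1 was lower in GNPs and 1 was higher in tumor-derived astrocytes than in GNPs. The shares of all genes called in these directions were 17.9%, 11.6% and 6.62%. The 8 markers of meninges and fibroblasts summed to 16.1 CPM in tumor-derived replicate 1, 31.6 to 43.8 CPM in replicates 2 to 4, 30.6 to 65.9 CPM in normal astrocytes and 18.6 to 31.7 CPM in GNPs.

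The genes on either side of the 3 loci were examined within 100 kb, where their mean level was at least 1 CPM. Next to Tnnt1 lies Tnni3, at 1923 bases, described above with the troponins. Its other neighbours Ppp1r12c, Syt5 and Rdh13 were not called against normal astrocytes. Next to Tnnt3, at 3969 bases, Lsp1, a leukocyte actin-binding protein, was at 119, 116, 97.5 and 89.8 CPM in tumor-derived replicates 1 to 4, at 7.35 to 11 CPM in GNPs and at 0 to 15.9 CPM in normal astrocytes. Lsp1 rose by 4.62 ± 1.17 in tumor-derived astrocytes (edgeR adjusted p = 0.011; 7.39 without normal replicate 1). Its levels by library differed from those of Tnnt3, which was high in GNPs and in tumor-derived replicate 1. The imprinted non-coding RNA H19, at 59520 bases, was at 28.9, 0.86, 1.74 and 2.11 CPM in tumor-derived replicates 1 to 4, at 0.213 to 7.47 CPM in GNPs and at 0 to 0.113 CPM in normal astrocytes. H19 rose by 7.89 ± 1.71 (adjusted p = 0.00513; 5.44 without tumor-derived replicate 1, 9.63 without normal replicate 2). In GNPs H19 rose by 7.03 ± 1.74 (adjusted p = 0.0126; 5.8 and 0.0654 without GNP replicate 3, 7.63 without the other GNP sample, 8.75 without normal replicate 2).

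Tnni2, described above with the troponins, lies 54426 bases from Tnnt3. Mrpl23, a protein of the mitochondrial ribosome at 16790 bases, rose by 1.33 ± 0.29 in tumor-derived astrocytes (edgeR adjusted p = 0.00542). The last Tnnt3 neighbour, Nctc1, at 28600 bases, had a mean of 3.3 CPM over the samples. Around Pdlim3 no neighbour rose. Ufsp2, at 55982 bases, fell by 1.84 ± 0.54 on the log2 scale in tumor-derived astrocytes (adjusted p = 0.0213), or by 2.54 without tumor-derived replicate 1, and lost the call without normal replicate 1 or tumor-derived replicate 2, 3 or 4 (0.0511 to 0.0645). Ankrd37, at 77356 bases, fell by 2.73 ± 0.88 (adjusted p = 0.0323), or by 3.4 without tumor-derived replicate 1, and lost it without normal replicate 3 or tumor-derived replicate 2, 3 or 4 (0.0722 to 0.085). The other Pdlim3 neighbours, 1700029J07Rik, Sorbs2 and Lrp2bp, were not called against normal astrocytes.

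The genes most like each of the 3 across the 10 samples were ranked by the root mean square difference of log2(CPM + 1), each gene centred on its own mean, among 16373 genes. Closest to Tnnt3 were Tnni2 (0.627), Mylpf (0.781) and Actc1 (0.865), all genes of the sarcomere, then Rps13-ps1 (0.994) and Hmgb2 (1.01). Rps13-ps1, a pseudogene whose reads may come from near-identical copies and is therefore uncertain, was at 746 CPM in tumor-derived replicate 1, at 10.2, 6.94 and 5.28 CPM in replicates 2 to 4, at 680 to 929 CPM in GNPs and at 1.81 to 4.16 CPM in normal astrocytes. Closest to Tnnt1 were Ncaph (0.857), A830036E02Rik (0.903), Cpxm2 (0.921), Rcor2 (0.969) and Krt12 (0.97), none of them a gene of the 4 striated muscle lists. Ncaph, a condensin subunit of dividing cells, was at 49.4, 16.5, 17.4 and 18.7 CPM in tumor-derived replicates 1 to 4, at 27.3 to 32.0 CPM in GNPs and at 0 to 0.113 CPM in normal astrocytes.

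Closest to Pdlim3 were C1qtnf6 (0.7), 9530053A07Rik (0.701), Rbp4 (0.797), Sox4 (0.836) and Mex3a (0.841), again outside the striated muscle lists. C1qtnf6 was at 110, 169, 151 and 181 CPM in tumor-derived replicates 1 to 4, at 82.1, 73.8, 14.8 and 83.5 CPM in GNPs and at 0 to 3.71 CPM in normal astrocytes. Like Pdlim3 it was lowest within the GNP group in replicate 3, but it was also lowest within the tumor-derived group in replicate 1, where Pdlim3 was highest. Among themselves, Tnnt1 and Tnnt3 differed by 1.31, Tnnt1 and Pdlim3 by 1.33, and Tnnt3 and Pdlim3 by 2.41. In the order of likeness to Tnnt3, Tnnt1 stood at rank 43 and Pdlim3 at rank 3045.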

How the data were processed

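RNA of 12 libraries, 4 per group, all laser captured per the labels, was amplified from transcript 3′ ends and sequenced. The authors deposited raw read counts per gene; per the submitters' processing notes, reads were examined with FastQC and aligned with STAR to mm10. Which program counted the reads, with which annotation and strand setting, was not given in the sources used here. The deposited table also holds gene lengths, which were not used. Of its 47284 lines, 767 repeats were removed and 27 gene symbols that a spreadsheet had turned into dates were restored, leaving 46517 genes.

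Counts were summed over GNP replicates 1, 2 and 4, which differed far less than the other pairs within groups (chi-square over genes with 10 or more counts), giving 10 samples. Genes were kept by filterByExpr (minimum count 10, minimum total 15), scaled by TMM and tested with edgeR's quasi-likelihood test (robust) over all 3 groups, with 7 residual degrees of freedom, a common biological coefficient of variation of 0.783 and Benjamini-Hochberg adjustment at 0.05 over 16374 genes. All 3 genes passed the filter through the tumor libraries. Standard errors are the log2 fold change over the root of F. CPM used TMM factors over the 12 libraries; log2 values used a pseudocount of 1. A fold against a group at 0 used 3 counts per library as its floor (0.294 CPM in normal astrocytes, 0.339 in tumor-derived astrocytes, 0.315 in GNPs), which covers counting error only. Ratios were compared by exact permutation.

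The members and gene lists were chosen with earlier results of these data known. Named genes were the members, all troponin, PDZ-LIM and SHH signature genes, the defining genes of each list, up to 4 called genes per list, comparison and direction with the largest changes, neighbours within 100 kb at a mean of at least 1 CPM, and the 5 most alike genes. Alternatives were each sample left out, all 12 libraries kept apart, DESeq2's test, the compared groups alone, other scalings and other filters. Versions were R 4.3.3, edgeR 4.0.16, limma 3.58.1, DESeq2 1.42.0, Python 3.11.15, scipy 1.17.1, pandas 2.3.3 and numpy 2.4.6. 1 gene of the lists, counted but not named, is not reported here.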

Additional observations from a re-analysis of the deposited data

Results flagged for a closer look

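In groups of 4 libraries, a library was marked where its gap to the nearest other exceeded 0.829 of the group's range (Dixon's criterion, which chance meets in about 1 of 20 groups). Of 35 pairs of a gene and an astrocyte group examined, 21 were marked. Tumor-derived replicate 1 was the high library in 13 of the 14 marked in its group: Tnnt1 at 236 CPM (others up to 16.8), Tnnt3 at 60.5 CPM (up to 5.28), Tnni1 at 150 CPM, Tnni2 at 65.0 CPM, Tnnc1 at 104 CPM, Tnni3 at 11.6 CPM, Acta1 at 189 CPM, Myh3 at 211 CPM, Ttn at 27.8 CPM, Actn2 at 41.9 CPM, Myog at 3.37 CPM, Ldb3 at 1.5 CPM and Ckm at 0.623 CPM. Among 14112 genes at a mean of 1 CPM or more in that group, 9.93% had a library marked in this way. Ckm, Ldb3 and Myog had lower means in that group and lie outside this share. Pdlim3, at 121 CPM in replicate 1, was not marked. The remaining one was Pdlim5 at 12.3 CPM in tumor-derived replicate 4, where the others were at 6.29 to 6.73 CPM.

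Among the normal astrocyte libraries, 7 values were marked. Replicate 4 held Pdlim4 at 35.4 CPM, Ldb3 at 6.05 CPM and Actn2 at 4.29 CPM. Replicate 1 held Tnni2 at 0.567 CPM, and replicate 2 held Pdlim1 at 0.681 CPM, Ckm at 0.34 CPM and Myh3 at 0.113 CPM, in each case with the other libraries at or near 0. Ckm and Myh3 had 3 counts and 1 count there, at or under the floor of 3 counts. Among 12850 genes at a mean of 1 CPM or more in normal astrocytes, 13.7% had a library marked in this way. Tnni2, Pdlim1, Ckm and Myh3 had lower means in normal astrocytes and lie outside this share.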

How the results depend on the processing

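The Tnnt1 difference between the tumor groups, 0.46 on the log2 scale, ranged from -1.92 to 0.85 as each single library was left out, was 1.96 without GNP replicates 1, 2 and 4, and was below 0 without tumor-derived replicate 1 (-1.92) and without GNP replicate 3 (-0.28). The Tnnt3 difference ranged from -5.0 to -2.31 and passed the threshold without tumor-derived replicate 1 (-5.0) and with 12 separate libraries (-2.76). The Pdlim3 difference ranged from 1.3 to 3.53 and passed with 12 separate libraries (1.77), with DESeq2's test (2.17) and with the tumor groups alone (2.05). The count of striated muscle genes called in tumor-derived against normal astrocytes, 26, was 17 with DESeq2's test and 17 with those groups alone, 10 higher and 7 lower in both against 19 and 7. Between the tumor groups, 6 were called, against 18 with 12 separate libraries (11 above, 7 below), 15 with DESeq2 (11 and 4), 19 with the tumor groups alone (12 and 7) and 1 to 10 as each sample was left out. In GNPs against normal astrocytes the count of 26 (20 higher, 6 lower) was 19 to 38 over 20 alternatives, with 12 higher and 12 lower by DESeq2 and 26 and 12 with 12 separate libraries. Counts over all genes between the tumor groups, 1617, ranged from 184 to 4752, those in GNPs, 3951, from 1947 to 6356, and those in tumor-derived astrocytes, 5285, from 3718 to 6512. The cause of these changes was not tested, except that leaving out a sample leaves fewer samples. Upper quartile scaling moved the median log2 change of all genes from 0.11 to 0.31 in tumor-derived and from 0.05 to 0.16 in GNPs against normal astrocytes, and DESeq2's size factors moved it from 0.06 to 0.17 between the tumor groups. No paired analysis was possible because the labels give no replicate numbers that groups share. With 2 GNP samples the precision of every GNP mean is limited, and genes under 3 counts per library cannot be told from 0.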
